A study of Mus musculus with 4 samples.

Results

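Gas1 and 9 further components of the Hedgehog pathway were followed in 3T3-L1 cells, mouse fibroblasts of a line that can form fat cells, after differentiation. The 10 genes were taken by symbol from the deposited table of 16051 genes, and each symbol had 1 row. They are Gas1, Boc, Cdon, Ptch1, Smo, Sufu, Gli1, Gli2, Gli3 and Hhip. The choice was made with the treatment contrast known, since Gas1 was among the most strongly lowered transcripts of the series, so the values of these genes under treatment are given as a description and not as a test.

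The cells, labelled as NIH SWISS in strain and as embryonic in tissue, were first taken through an adipogenic cocktail of isobutyl-methylxanthine, dexamethasone and insulin. They were then exposed for 48 h to the antipsychotic risperidone at 100 μM or to its solvent DMSO, and the sample labels call the DMSO cells untreated. Each treatment has 2 libraries, and 3 cultures went into the RNA of each library, which hides the spread between single cultures. The library totals lay between 15883712 and 16374119 estimated read counts, and a count of 0 allows up to 3 counts, or 0.183 to 0.189 CPM (counts scaled to library size), for counting error only.

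The adipocyte identity named by the labels was only partly borne out by markers. Lpl, the lipoprotein lipase gene, had between 11967 and 15569 counts in each library. Fabp4, a fatty acid binding protein of fat cells, had 1079 and 1360 with DMSO and 492 and 586 with risperidone. Pparg had 388 and 345 counts with DMSO and 384 and 364 with risperidone. Adipoq, which encodes adiponectin, had 1 count or fewer in each library, and Cebpa, a factor of terminal fat cell differentiation, had 5 or fewer. The 11 adipocyte markers summed to 1010 and 1092 CPM with DMSO and to 809 and 814 CPM with risperidone. Most of this was Lpl, without which they summed to 93.7 and 112 CPM with DMSO and 57.2 and 64.9 CPM with risperidone. The 8 preadipocyte and fibroblast markers summed to 3084 and 3039 CPM with DMSO and 4820 and 4633 CPM with risperidone. The rise of that sum lay in Col1a1, a collagen gene, since the other 7 of these markers summed to 884 and 904 CPM with DMSO and 677 and 720 CPM with risperidone. Those 7 did not move together. Thy1 (938 and 934 counts with DMSO against 1834 and 1809 with risperidone) and Dlk1 (873 and 923 against 2406 and 2408) rose as well. Col3a1 (9328 and 9416 against 4360 and 4670) and Pdgfrb (1878 and 1693 against 1125 and 1234) fell. Risperidone replicate 2 stood apart through 12 kidney markers, which summed to 254 CPM there and to between 4.44 and 7.63 CPM in the other libraries. The labels also describe an extraction from retina, and the retina markers analysed summed to between 3.13 and 4.15 CPM.

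Hedgehog ligands are secreted proteins that bind the receptor Patched 1, encoded by Ptch1. Without ligand, Patched 1 keeps the membrane protein Smoothened (Smo) inactive, Sufu holds the Gli transcription factors back, and Gli2 and Gli3 are cut into repressors. Gas1, Boc and Cdon encode co-receptors at the cell surface that help ligand bind, Gas1 being a lipid-anchored protein first found as a transcript of growth-arrested fibroblasts. Ptch1, Gli1 and Hhip, which encodes a decoy receptor, are both components and transcriptional targets of the pathway. Active Hedgehog signalling is known to restrain the conversion of preadipocytes into fat cells.

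Promoter sequences are shown for the 3 components with the strongest decreases, Gas1, Sufu and Smo, for Gli2, which had the strongest increase, and for the target gene Ptch1. Each line gives 250 bases before and 50 bases after the RefSeq start on the GRCm38.p6 assembly, 5′ to 3′ on the strand of the gene. Capitals mark GC boxes (GGGCGG or its reverse complement CCGCCC) and CCAAT boxes (CCAAT or ATTGG).
Gas1: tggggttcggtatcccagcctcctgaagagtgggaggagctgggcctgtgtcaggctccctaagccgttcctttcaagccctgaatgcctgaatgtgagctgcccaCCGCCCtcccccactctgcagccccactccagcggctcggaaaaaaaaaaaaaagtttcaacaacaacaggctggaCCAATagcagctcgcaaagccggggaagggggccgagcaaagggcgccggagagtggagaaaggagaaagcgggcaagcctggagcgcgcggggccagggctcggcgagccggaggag
Sufu: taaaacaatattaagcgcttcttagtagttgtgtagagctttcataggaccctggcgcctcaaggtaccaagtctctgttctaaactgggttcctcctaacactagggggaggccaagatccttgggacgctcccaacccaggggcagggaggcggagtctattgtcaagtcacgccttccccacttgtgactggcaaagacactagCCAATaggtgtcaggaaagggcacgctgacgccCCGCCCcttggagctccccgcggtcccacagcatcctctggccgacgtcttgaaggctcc
Smo: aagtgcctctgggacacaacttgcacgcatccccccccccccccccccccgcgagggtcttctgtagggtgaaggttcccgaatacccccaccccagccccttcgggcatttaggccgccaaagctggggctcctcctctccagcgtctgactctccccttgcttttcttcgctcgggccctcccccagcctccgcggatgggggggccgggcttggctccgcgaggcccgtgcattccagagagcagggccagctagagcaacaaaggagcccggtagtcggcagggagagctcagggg
Gli2: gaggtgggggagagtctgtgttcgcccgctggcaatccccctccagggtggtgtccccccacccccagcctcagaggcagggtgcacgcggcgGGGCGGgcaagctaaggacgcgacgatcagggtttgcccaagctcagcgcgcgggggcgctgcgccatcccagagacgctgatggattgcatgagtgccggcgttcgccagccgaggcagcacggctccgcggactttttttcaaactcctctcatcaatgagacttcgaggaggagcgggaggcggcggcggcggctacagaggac
Ptch1: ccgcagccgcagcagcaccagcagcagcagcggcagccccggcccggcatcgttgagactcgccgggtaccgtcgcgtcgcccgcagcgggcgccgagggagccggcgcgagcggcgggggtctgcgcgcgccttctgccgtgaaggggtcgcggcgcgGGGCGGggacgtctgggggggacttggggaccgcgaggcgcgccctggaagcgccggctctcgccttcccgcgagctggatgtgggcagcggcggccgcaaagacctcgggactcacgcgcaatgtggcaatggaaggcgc
The windows are chr13:60177486-60177785 on the minus strand for Gas1, chr19:46396646-46396945 on the plus strand for Sufu, chr6:29735247-29735546 on the plus strand for Smo, chr1:119053570-119053869 on the minus strand for Gli2 and chr13:63565686-63565985 on the minus strand for Ptch1. The Ptch1 window lies inside the gene as GENCODE annotates it, downstream of its outermost start, as do those of Cdon (chr9:35451826-35452125) and Gli3 (chr13:15463473-15463772), which are not printed, and the Gas1 window lies just upstream of the GENCODE gene.

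Of the 10 genes, 8 had a promoter window in the RefSeq table, the exceptions being Boc and Gli1. The Gli consensus GACCACCCA was sought on both strands in these windows. It was found in none of the 8, and in 83 of all 32851 promoter windows of the same length (0.253%). The Gas1 window holds 1 GC box that begins 144 bases before the start and 1 CCAAT box that begins 68 bases before it. The Sufu window holds a CCAAT box at 43 bases and a GC box at 10 bases before the start. A GC box was present in 6 of the 8 windows, against 35.7% of all windows, and a CCAAT box in 3, against 37.4%, Cdon included. The GC content of the 8 windows ran from 44.7% for Cdon to 76.3% for Ptch1, with Gas1 at 62.3% and Sufu at 56.3%, beside a median of 52.7% over all windows.

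Gas1 (NCBI Gene 14451) is a single-exon gene of 2961 bases on chromosome 13, from 60174405 to 60177365 on the minus strand of GRCm38. Its level was 99.8 and 108 FPKM (fragments per kilobase of transcript, scaled to library size) in the DMSO libraries and 13.8 and 16.1 FPKM in the risperidone libraries. Both risperidone libraries lay far below both DMSO libraries, and the gap between the treatments was many times the spread within either. The counts behind these levels were 4897 and 5136 with DMSO and 672 and 774 with risperidone. The log2 fold change, risperidone over DMSO, was -2.70 (standard error, SE, 0.0694), a 6.502-fold lower level. It was the 11th lowest among the 10243 genes tested, those whose FPKM averaged 1 or more. In bulk RNA, fewer cells of a type and less RNA per cell cannot be told apart. Without risperidone replicate 2, the library with the kidney transcripts, the log2 fold change of Gas1 was -2.81. The preadipocyte and fibroblast markers moved with Gas1 in opposite senses, with Dlk1 higher (873 and 923 counts against 2406 and 2408) and Col3a1 lower (9328 and 9416 against 4360 and 4670), and their part in the decrease was not tested.

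The other co-receptors were much less abundant than Gas1 in DMSO cells. Cdon (NCBI Gene 57810, chromosome 9, 35421128 to 35507652) was at 9.24 and 8.14 FPKM with DMSO and at 6.19 and 6.90 FPKM with risperidone. Its treatments did not overlap, and its log2 fold change was -0.32 (SE 0.0814). It was -0.18 with offsets for effective length and GC content, -0.23 without DMSO replicate 1 and -0.52 on the log2(TPM + 1) scale, or -0.29 relative to the median of all genes there. Boc (NCBI Gene 117606, chromosome 16, 44485049 to 44558897) went the other way, from 1.89 and 1.91 FPKM to 2.18 and 2.60 FPKM. Its log2 fold change of 0.43 (SE 0.146) rested on 130 to 179 counts per library. It was 0.30 without risperidone replicate 2, 0.54 without risperidone replicate 1 and 0.22 on the log2(FPKM + 1) scale. On the log2(TPM + 1) scale it was 0.15, or 0.37 relative to the median of all genes there.

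Taken as a sum, the 3 co-receptor transcripts reached 111 and 118 FPKM with DMSO and 22.2 and 25.6 FPKM with risperidone. Gas1 made up 89.97% and 91.5% of that sum in the DMSO libraries and 62.2% and 62.9% in the risperidone libraries. The share of Cdon was 8.33% and 6.90% with DMSO and 27.9% and 26.9% with risperidone, and that of Boc was 1.70% and 1.62% against 9.84% and 10.1%. Boc and Cdon together were at 11.1 and 10.1 FPKM with DMSO and at 8.37 and 9.50 FPKM with risperidone, so that the change of the sum lay almost wholly in Gas1, which remained the largest of the 3 in every library.

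**Figure D1:**
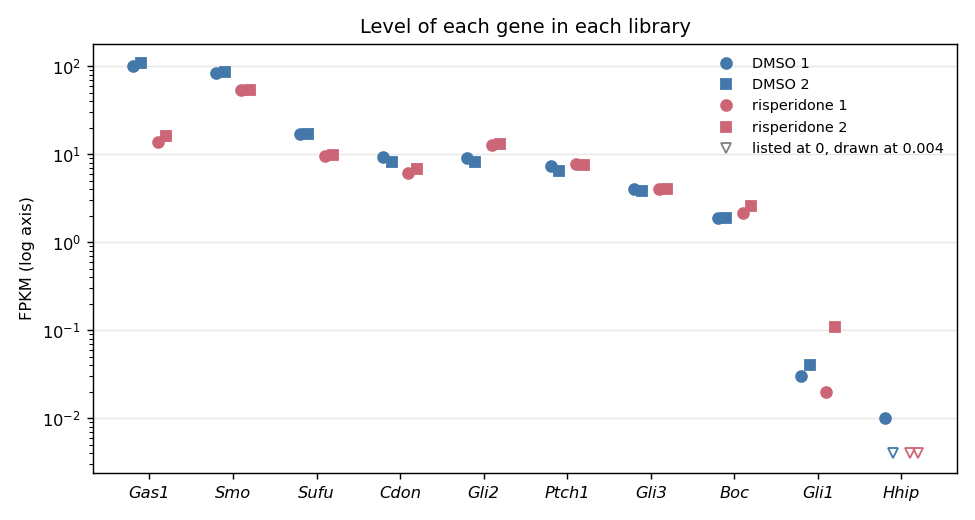
FPKM on a log axis for each of the 10 genes in each of the 4 libraries, with DMSO in blue, risperidone in red, circles for replicate 1, squares for replicate 2 and open triangles for values listed at 0. Gas1 was the highest of the 10 genes with DMSO and lay below Smo with risperidone, while Gli1 and Hhip stayed at or below 0.11 FPKM throughout.

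Ptch1 (NCBI Gene 19206, chromosome 13, 63508328 to 63573598), the receptor gene and a target of the pathway, differed little. It was at 7.47 and 6.52 FPKM with DMSO and at 7.70 and 7.60 FPKM with risperidone. Both risperidone libraries were above both DMSO libraries, but the gap between the treatments was smaller than the gap between the DMSO libraries. On the CPM scale, which leaves transcript length aside, the values were 46.6 and 45.4 with DMSO and 50.9 and 51.1 with risperidone. The log2 fold change was 0.24 (SE 0.0612), and on the log2(TPM + 1) scale (TPM being length-scaled values brought to 1 sum per library) it was -0.01, a scale that lowers the median of all genes to -0.22, so that relative to that median it was 0.21.

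The effective length that the deposited counts and FPKM imply for Ptch1 was 6238 bases in DMSO replicate 1 and 6956 in DMSO replicate 2, with 6603 and 6697 in the risperidone libraries. GENCODE lists 10 transcripts of Ptch1, and such a length is an average over transcripts. The difference between the DMSO libraries was larger than that between the treatments, and FPKM, unlike CPM, is divided by this length. For Gas1, with a single exon, the same length lay between 2994.54 and 2995.79 bases in all 4 libraries.

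Smo (NCBI Gene 319757, chromosome 6, 29735503 to 29761365), the transducer that Patched 1 restrains, was the most abundant component after Gas1 in DMSO cells. It stood at 84.2 and 85.5 FPKM with DMSO and at 53.4 and 53.9 FPKM with risperidone. The replicates of a treatment were close to each other and the treatments well apart, with a log2 fold change of -0.60 (SE 0.0450). The ratio of Smo to Ptch1 FPKM within a library was 11.3 and 13.1 with DMSO and 6.93 and 7.09 with risperidone.

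Sufu (NCBI Gene 24069, chromosome 19, 46396896 to 46488804), the inhibitor that binds Gli proteins, was lower by a similar factor. Its level was 16.9 and 17.0 FPKM with DMSO and 9.52 and 9.95 FPKM with risperidone, a log2 fold change of -0.70 (SE 0.0632). The positive transducer Smo and the negative regulator Sufu were thus both lower in both risperidone libraries.

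Among the Gli transcription factors, Gli2 (NCBI Gene 14633, chromosome 1, 118834132 to 119053619) was higher with risperidone. It was at 9.07 and 8.22 FPKM with DMSO and at 12.8 and 13.1 FPKM with risperidone, a log2 fold change of 0.68 (SE 0.0667). On the log2(TPM + 1) scale the log2 fold change of Gli2 was 0.42, or 0.64 relative to the median of all genes there. Gli3 (NCBI Gene 14634, chromosome 13, 15463235 to 15730026), whose product acts mostly as a repressor, was at 4.02 and 3.85 FPKM with DMSO and 4.08 and 4.04 FPKM with risperidone. Its log2 fold change of 0.14 (SE 0.0597) was -0.09 on the log2(TPM + 1) scale, or 0.14 relative to the median of all genes there, and was 0.30, and called higher, with offsets for effective length and GC content. The ratio of Gli2 to Gli3 was 2.26 and 2.14 with DMSO and 3.13 and 3.25 with risperidone. Sufu FPKM divided by the summed Gli FPKM was 1.28 and 1.40 with DMSO, so that Sufu transcripts outnumbered those of the factors it binds, and 0.565 and 0.576 with risperidone, where they did not.

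**Figure D2:**
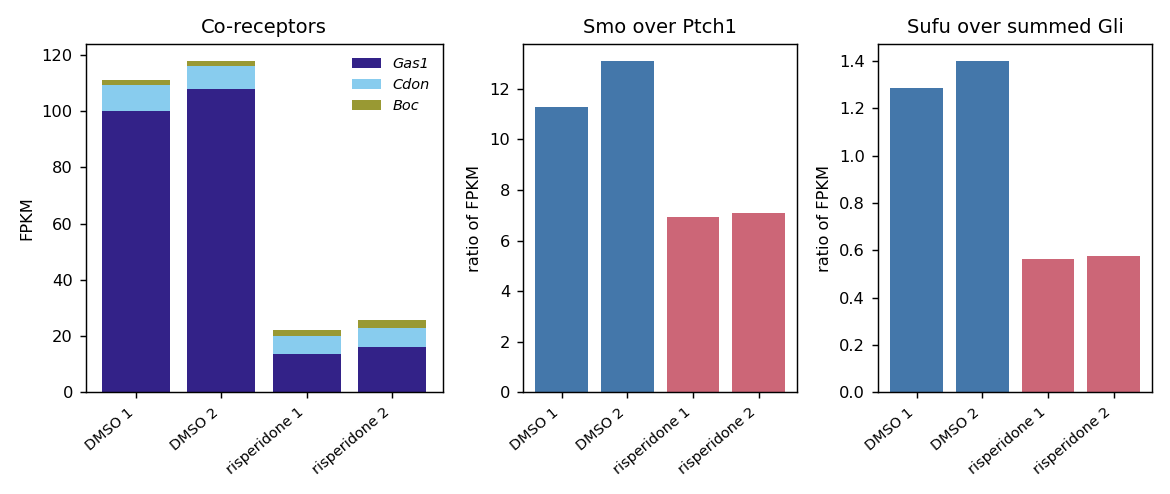
Stacked FPKM of Gas1, Cdon and Boc in each library (left), the ratio of Smo to Ptch1 FPKM (middle) and the ratio of Sufu to summed Gli FPKM (right), with DMSO libraries in blue and risperidone libraries in red in the ratio panels. The co-receptor sum went from 111 and 118 FPKM to 22.2 and 25.6 FPKM, and both ratios were lower in both risperidone libraries.

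Gli1 (NCBI Gene 14632, chromosome 10, 127329882 to 127341974) and Hhip (NCBI Gene 15245, chromosome 8, 79965851 to 80058006), the usual target genes used to read pathway activity, were scarcely detected and did not pass the limit of a mean of 1 FPKM. Gli1 had 2 counts in each DMSO library, 1 in risperidone replicate 1 and 6 in risperidone replicate 2, the library with the kidney transcripts. Hhip had 1 count in DMSO replicate 1 and 0 in the other libraries. At this depth no difference in either gene was detectable, and no fold change is given. Of the 3 target genes among the 10 components, Ptch1 alone was measurable.

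In the DMSO libraries the order of the levels by mean FPKM was Gas1 (104 ± 5.68, SD, n = 2), Smo (84.9 ± 0.919), Sufu (16.9 ± 0.0919), Cdon (8.69 ± 0.778), Gli2 (8.64 ± 0.601), Ptch1 (6.99 ± 0.672), Gli3 (3.94 ± 0.120), Boc (1.90 ± 0.0141), Gli1 (0.035 ± 0.00707) and Hhip (0.005 ± 0.00707). Among neighbours in that order, Cdon and Gli2 overlapped in their libraries and the other pairs down to Gli1 did not. With risperidone the order was Smo (53.6 ± 0.339, SD, n = 2), Gas1 (14.9 ± 1.65), Gli2 (12.9 ± 0.262), Sufu (9.73 ± 0.304), Ptch1 (7.65 ± 0.0707), Cdon (6.54 ± 0.502), Gli3 (4.06 ± 0.0283) and Boc (2.39 ± 0.297), and no neighbours in that order overlapped. Gas1 thus gave up its lead to Smo, and Gli2 moved above Sufu and Cdon. Among all genes tested Gas1 ranked 705th by FPKM in the DMSO libraries and Smo 906th.

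Of the 8 genes tested with edgeR's quasi-likelihood test at an adjusted p under 0.05, 4 (Gas1, Sufu, Smo and Cdon) were called lower and 3 (Gli2, Boc and Ptch1) higher. Over all genes tested 32.2% were called lower, 32.1% higher and 64.3% in either direction. The FPKM of the treatments did not overlap for any of the 8, as was the case for 82.2% of all genes tested. With a background this high, and with the genes chosen on this contrast, nothing is read from these counts about the pathway. The median log2 fold change of the 8 was -0.09, against 0.00044 over all genes tested. The size of the Gas1 change sets it apart as a value, since 3.91% of the genes tested were called lower with a log2 fold change of -1 or below and Gas1 alone of the 8 was among them. Boc was not called by DESeq2, with library size alone or by any limma setting, nor was it called without DMSO replicate 1, DMSO replicate 2 or risperidone replicate 2. Ptch1 was not called with library size alone or by any limma setting, which left Gli2 as the 1 gene called higher there. With offsets for effective length and GC content, Gli3 was also called and 4 were higher, where 3552 of all genes were higher and 3123 lower.

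**Figure D3:**
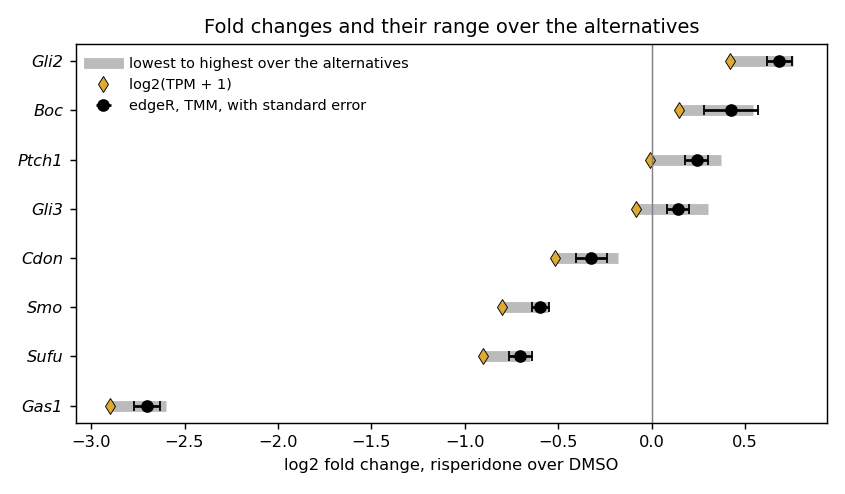
Log2 fold change, risperidone over DMSO, for the 8 genes past the limit of 1 FPKM, with black points and bars for edgeR's estimate and its standard error, grey bands for the lowest to highest value over the alternative settings and yellow diamonds for log2(TPM + 1). Gas1, Sufu, Smo and Cdon stayed below 0 and Gli2 and Boc above 0 in all settings, while Ptch1 and Gli3 lay below 0 on the TPM scale, where the median of all genes was -0.22.

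The genes outside these 10 that take part in Hedgehog signalling were read from 5 lists of general knowledge, which held 103 genes, of which 86 passed the limit of 1 FPKM. By the same edgeR test and threshold, 16 of them (18.6%) rose with risperidone and 37 (43.0%) fell, beside 32.1% and 32.2% of all genes tested. Their median log2 fold change was -0.16. With limma on log2(TPM + 1) 9 rose and 58 fell, on a scale where 1536 of all 10243 genes rose and 5292 fell. With offsets for effective length and GC content 22 rose and 34 fell, where 3552 of all genes rose and 3123 fell. The lists still held more genes called lower than higher without risperidone replicate 2.

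Transcripts of the ligands themselves were near or at 0. Ihh, Indian hedgehog, had 2 counts in each DMSO library and 0 and 1 with risperidone, and Dhh, Desert hedgehog, had a single count, in risperidone replicate 2. Shh was not analysed here. Of 3 tested genes for ligand processing and release 1 rose, beside 32.1% higher and 32.2% lower of all genes tested. It was Disp2, a relative of the ligand exporter Dispatched 1, with 4.83 and 5.15 FPKM with DMSO and 6.62 and 6.87 with risperidone (log2 fold change 0.52, SE 0.0595, adjusted p = 2.04e-05). Hhat, the palmitoyl transferase of the ligands (log2 fold change -0.20), and Disp1 (-0.16) did not pass edgeR's test, and 0 of the 3 genes fell by it, by an unadjusted p under 0.05 or by DESeq2, while limma on log2(TPM + 1) called 1 of them, Disp1, lower.

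Among other regulators at the cell surface, 2 of 6 tested genes rose and 3 fell, beside 32.1% higher and 32.2% lower of all genes tested. Gpc4, a glypican proteoglycan, rose, with 35.2 and 34.3 FPKM with DMSO and 49.0 and 47.4 with risperidone (log2 fold change 0.77, SE 0.0524, adjusted p = 5.05e-07). Its counts, 1425 and 1348 with DMSO and 2296 and 2126 with risperidone, differed more than its FPKM, which is divided by effective length. Over the fits its log2 fold change ran from 0.32 to 0.82, and the cause was not tested. Mosmo, whose product lowers the amount of Smoothened at the cell surface, fell, with 12.4 and 12.2 FPKM with DMSO and 7.32 and 7.70 with risperidone (log2 fold change -0.68, SE 0.0591, adjusted p = 2.79e-06). Smo itself was lower too. The other gene that rose, Gpc6 (log2 fold change 0.21), was called in 6 of 16 fits, and 1 gene was left higher in each of the others. Those were the fits without DMSO replicate 1 or risperidone replicate 2, with no filter, with the limit at 5 FPKM, with library size alone, with DESeq2 and with limma, and on log2(TPM + 1) its value was -0.03. Gpr161, a ciliary receptor that holds the pathway off, was under the limit of 1 FPKM, at 94 and 81 counts with DMSO and 31 and 32 with risperidone. Lrp2, an endocytic receptor of kidney tubules, had 307 counts in risperidone replicate 2 and 29 to 49 in the other libraries.

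The cytoplasmic transducers and Gli-processing genes numbered 27 tested, of which 4 rose (14.8%), 11 fell (40.7%) and 12 did not pass the test, beside 32.1% and 32.2% of all genes tested. The strongest decreases were those of Kctd11, an adaptor for a ubiquitin ligase that restrains Gli activity, at 5.74 and 6.40 FPKM with DMSO and 3.01 and 3.23 with risperidone (log2 fold change -0.86, SE 0.129, adjusted p = 0.000152), and Itch, a ubiquitin ligase that acts on Gli1, at 26.0 and 25.8 FPKM with DMSO and 14.0 and 15.4 with risperidone (log2 fold change -0.72, SE 0.0559, adjusted p = 1.27e-06). The strongest increase was that of Csnk1e, a casein kinase, at 17.3 and 18.4 FPKM with DMSO and 27.0 and 23.9 with risperidone (log2 fold change 0.60, SE 0.0757, adjusted p = 4.63e-05). Without DMSO replicate 1 or DMSO replicate 2 fewer genes were called lower, in this list and over all genes tested. The share of the list was then no higher than that of all genes. With limma on log2(TPM + 1) 19 fell and 2 rose, where 5292 of all genes fell and 1536 rose. With offsets for effective length and GC content 8 fell and 6 rose, where 3123 of all genes fell and 3552 rose.

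Hedgehog signals pass through the primary cilium, and 42 genes of its transport machinery and base were tested. Of these, 20 fell, 7 rose and 15 did not pass the test, shares of 47.6% lower and 16.7% higher, with a median log2 fold change of -0.24, beside 32.2% lower and 32.1% higher over all genes tested. Rpgrip1l, a protein of the ciliary transition zone, fell, with 1.84 and 2.02 FPKM with DMSO and 0.660 and 0.640 with risperidone (log2 fold change -1.52, SE 0.151, adjusted p = 7.86e-06). It had 64 and 68 counts with risperidone, and its log2 fold change ran from -1.62 to -0.83 over the 15 fits that held it. B9d1, of the same zone, likewise fell, with 11.2 and 11.8 FPKM with DMSO and 4.23 and 3.76 with risperidone (log2 fold change -1.41, SE 0.186, adjusted p = 6.02e-05). Bbs1, a subunit of the complex that carries membrane proteins in and out of the cilium, was at 2.40 and 2.48 FPKM with DMSO and 1.12 and 1.28 with risperidone (log2 fold change -0.93, SE 0.138, adjusted p = 0.000152). With a library left out in turn, between 16 and 20 cilium genes fell and between 6 and 7 rose. With limma on log2(TPM + 1) 29 fell and 3 rose, where 5292 of all 10243 genes fell and 1536 rose. With offsets for effective length and GC content 20 fell and 10 rose, where 3123 of all genes fell and 3552 rose.

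Of 8 tested genes held to be further transcriptional targets of the pathway, 2 rose (25%), 3 fell (37.5%) and 3 did not pass the test, beside 32.1% and 32.2% of all genes tested. Bcl2, a survival factor, rose, with 3.51 and 3.45 FPKM with DMSO and 4.67 and 5.47 with risperidone (log2 fold change 0.64, SE 0.0774, adjusted p = 3.33e-05). Ccnd1, which encodes cyclin D1, also rose, with 9.15 and 8.52 FPKM with DMSO and 11.8 and 13.3 with risperidone (log2 fold change 0.60, SE 0.0696, adjusted p = 2.43e-05). Foxf2, a forkhead factor of mesenchyme, fell, with 8.19 and 9.28 FPKM with DMSO and 5.01 and 4.67 with risperidone (log2 fold change -0.75, SE 0.117, adjusted p = 0.000193). The other targets that fell were Snai1 (log2 fold change -0.42), called in all 16 fits, and Nr2f2 (-0.16), called in 12 of 16. Nr2f2 lost its call with DESeq2, without DMSO replicate 1, without DMSO replicate 2 and with offsets for effective length and GC content. With limma on log2(TPM + 1) 5 targets fell, and with the limit at 5 FPKM 1 rose. Each of these genes also answers to other pathways, and they did not move in a single direction.

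**Figure D4:**
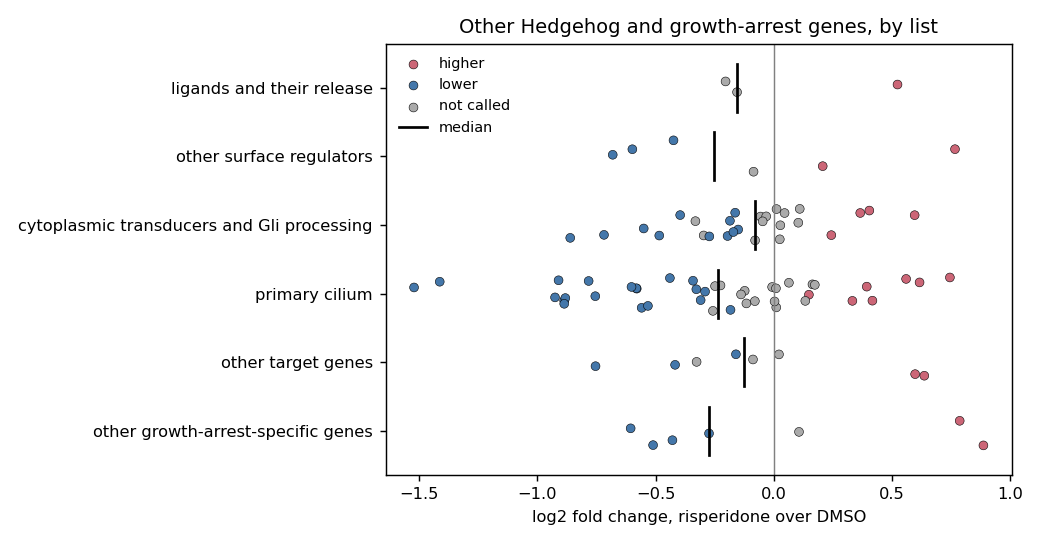
Log2 fold change, risperidone over DMSO, of each tested gene in the 5 lists of other Hedgehog pathway genes and the list of growth-arrest-specific genes, with genes called higher by edgeR in red, called lower in blue and not called in grey, and black bars for the median of a list. The primary cilium list holds the lowest values, Rpgrip1l at -1.52 and B9d1 at -1.41, and 20 of its 42 genes were called lower.

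Gas1 takes its name from a group of transcripts first collected in growth-arrested fibroblasts, and 7 others of that name were tested. Of these, 4 fell, 2 rose and 1 did not pass the test, where 64.3% of all genes tested were called in either direction. Gas6, a secreted ligand of receptor tyrosine kinases, fell, with 51.8 and 52.2 FPKM with DMSO and 29.9 and 34.1 with risperidone (log2 fold change -0.61, SE 0.0605, adjusted p = 8.16e-06). Gas2 and Gas2l3, which encode cytoskeletal linkers, both rose. Gas2 was at 1.76 and 1.38 FPKM with DMSO and 2.36 and 2.98 with risperidone (log2 fold change 0.89, SE 0.21, adjusted p = 0.0034) and Gas2l3 at 1.12 and 0.780 FPKM with DMSO and 1.67 and 1.40 with risperidone (log2 fold change 0.79, SE 0.188, adjusted p = 0.00361). Gas2l3 was not called by limma on log2(FPKM + 0.1) or on log2(TPM + 1), and neither gene passed a limit of 5 FPKM. Pmp22, also known as Gas3, was not called (log2 fold change 0.11). The Gas1 protein is also related to the receptors of the GDNF family, and none of the 5 genes of that family that could be read passed the limit of 1 FPKM, with Gdnf itself at 16 to 21 counts per library and the co-receptor gene Gfra1 at 1 to 7.

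The genes whose values over the 4 libraries were most like those of Gas1 were sought among 8051 genes that averaged 5 FPKM or more, by the root mean square distance between log2 CPM centred on the mean of the libraries. Agt, which encodes angiotensinogen, was nearest at 0.0917 and went from 623 and 648 FPKM with DMSO to 95.7 and 112 FPKM with risperidone. Dusp1, a phosphatase of MAP kinases, followed at 0.107, with 32.2 and 32.6 FPKM against 4.55 and 5.96. Saa3, an acute-phase gene, was at 0.115, with 917 and 1033 FPKM against 148 and 138, and the uncharacterized genes Gm40595 and Gm46403 were at 0.191 and 0.250. The median distance over all genes compared was 1.37. Boc, Gli1, Gli3 and Hhip averaged under 5 FPKM and were not compared. Cdon, Ptch1, Smo, Sufu and Gli2 could not be near, as their log2 fold changes ran from -0.70 to 0.68. With log2(TPM + 1) in place of log2 CPM, 4 of the 5 nearest genes were found again, without Gm46403. With 2 groups of 2 libraries, likeness of this kind says little more than that the fold changes are of similar size.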

How the data were processed

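Messenger RNA from 4 libraries, 2 per treatment, was sequenced on an MGISEQ-2000 instrument by the authors, who removed reads with adaptors, poly-N or low quality. The submitters' processing notes name Bowtie2, RSEM, DESeq2 and GRCm38.p6, without roles; the annotation and strandedness are not given in the sources used here. The deposited expected counts are unnormalized estimates by the authors, whole for 91.2% to 91.7% of values. The deposited FPKM values were scaled by the authors to length and mapped reads, and the deposited TPM values to a fixed sum per library. The authors' group means were not used.

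Counts were rounded and tested for the 10243 genes averaging 1 FPKM or more in R 4.3.3 with edgeR 4.0.16 (TMM, quasi-likelihood F-test, two-sided, Benjamini-Hochberg, threshold 0.05). TMM factors were 1.031, 1.035, 0.963 and 0.9735. The SE of a log2 fold change is its size divided by the square root of F. Alternatives used limma 3.58.1, DESeq2 1.42.0, other scalings and filters, a replicate term and each library left out, and offsets for effective length and GC content, added after the data were seen. The fits were tested on simulated data. The components and gene lists were chosen with earlier results of these data known. Named genes are the 10 components, up to 3 called genes with the largest change from each list, and the 5 genes nearest to Gas1. Marker genes, untested list genes, Gpc6, Hhat, Disp1, Snai1, Nr2f2 and Pmp22 were named after their values were seen. Nothing shows separate passages or days, so p-values measure the spread between these pooled libraries. Overlapping antisense transcripts, such as Gm48488 at Gas1, could not be told apart without strand. Some genes of the lists are counted but not reported here by name.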

Additional observations from a re-analysis of the deposited data

How the results depend on the processing

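Gas1, Sufu, Smo and Cdon kept their direction and were called lower in every alternative run, and Gli2 was called higher in each. Leaving out a library in turn gave log2 fold changes of -2.81 to -2.60 for Gas1 and 0.22 to 0.26 for Ptch1. Boc was called in 6 of 15 fits, Ptch1 in 11 of 16 and Gli3 in 1 of 15 (0.30, with offsets for effective length and GC content). Ptch1 and Gli3 were below 0 on log2(TPM + 1), where the median of all genes was -0.22, and stood at 0.21 and 0.14 relative to that median. The log2 fold change of Ptch1 was 0.15 with library size alone, 0.12, 0.13 and 0.12 with limma on log2(FPKM + 1), log2(FPKM + 0.1) and log2(FPKM + 0.5), -0.01 (-0.00946) on log2(TPM + 1) and 0.37 with offsets for effective length and GC content, and the cause was not tested. In those first 5 settings 1 of the 8 components tested, rather than 3, was called higher. On log2(TPM + 1) the log2 fold change of Gas1 was -2.90, and 1536 genes rose and 5292 fell, against 3287 and 3303 with TMM. The balance also shifted to 2500 and 4092 with library size alone and to 2420 and 3975 with limma on log2(FPKM + 1), but not with RLE size factors (3305 and 3291) or DESeq2 (2639 and 2653). In the other pathway lists, 9 genes rose and 58 fell on log2(TPM + 1), and 2 fell by a log2 fold change of at least 1, while the highest increase was 0.77, so 0 rose by that much. Leaving out a library gave 14 to 17 higher and 28 to 41 lower genes in those lists, and 2666 to 3310 and 2725 to 3350 over all genes. Replicate numbers are shared between the treatments but nothing in the labels ties them to a batch or day. With a replicate block, 3292 genes rose and 3321 fell, and Gas1 kept its value of -2.70. The replicate differences of DMSO and risperidone correlated at -0.18 (r = -0.1765, across genes, which are not independent), and a block with crossed numbers, chosen after seeing the data, gave 3474 and 3519. Depth limits what can be said of Gli1 and Hhip, at 6 counts or fewer in each library.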
